A study of Mus musculus with 4 samples.

Results

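The histone genes of mouse CD8 T cells were taken as every protein-coding row of the gene table whose symbol begins with Hist1h, Hist2h, Hist3h, Hist4h, H1f, H2af, H2ac, H2az, H2ax, H2bc, H3c, H3f or H4c. This rule selected 67 of the 15466 genes, and it used no measured value. By symbol, 59 of them are replication-dependent genes and 8 are replacement variants. Only genes with at least 1 read in every library are tabulated, and 9 further genes of these names in the RefSeq annotation (H1f5, H1f6, H1f7, H1f8, H1f10, H2ac1, H2bc1, H3f4 and H4c8) were not analysed here. Expression was measured by stranded poly(A) RNA sequencing of splenic CD8 T cells from C57BL/6 mice. The untreated groups are labelled wild type, and for the others the labels give the treatment in place of a genotype. The mice had received either PBS (untreated) or IL-15C (IL-15 bound to IL-15Ra, a chain of its own receptor) in 4 doses a week. CD8 cells enriched on magnetic beads were sorted on CD44 and CD49d: naive cells lack both, and virtual memory (VM) cells are CD44 high without CD49d. The latter are cells of memory phenotype found in animals without known exposure to antigen. The 4 groups (untreated naive, untreated VM, IL-15C naive and IL-15C VM) have 1 library each, and whether the 3 mice named per group were pooled is not stated.

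Histones are the proteins around which DNA is wrapped: H2A, H2B, H3 and H4 form the nucleosome core and H1 binds the linker. Replication-dependent genes supply the bulk of them during S phase. Their genes lie in clusters without introns, and their mRNAs end in a conserved stem-loop, bound by SLBP, in place of a poly(A) tail. Replacement variants come from single genes with ordinary polyadenylated mRNAs and are made through the whole cell cycle. Since the libraries were selected on poly(A), they hold replication-dependent transcripts only in part, and the levels below describe that captured part. In a resting spleen most CD8 T cells are outside the cell cycle, and IL-15 is known to make memory CD8 cells divide.

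With 1 library per group no difference has a replicate check and no p-value was computed. Levels are read counts relative to library size after TMM scaling (CPM), and levels of different genes are compared only per length, as TPM. The 95% intervals are exact Clopper-Pearson or Poisson intervals and cover counting error only. Calls of higher or lower required the whole interval beyond 2-fold, with at least 20 reads in the libraries compared and 1 CPM in the higher one. The libraries held 43862816 to 48950547 reads in genes, so 1 read is worth 0.0197 to 0.0233 CPM. Cd8a stood at 1396, 1168, 1603 and 1050 CPM in untreated naive, untreated VM, IL-15C naive and IL-15C VM cells, the order used for every set of 4 values below. Cd44, part of the sort gate, stood at 8.65, 232, 17.2 and 243 CPM, low in both naive libraries and high in both VM libraries. Dendritic cell markers summed to 5.01, 201, 8.34 and 87.9 CPM over the 5 of 8 listed genes in the table, and Xcr1, Clec9a and Siglech were not among them. B cell markers summed to 487, 671, 562 and 612 CPM over 6 of 8 genes, mostly from Ighm. Within that list, Cd79a stood at 0.177, 15.8, 0.176 and 1.12 CPM. Untreated VM cells were thus the library with the most of both kinds of marker, and the part of other cells in its histone values was not tested. Fewer cycling cells and less histone RNA per cycling cell cannot be told apart in these bulk samples.

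The 3′ stem-loop, the element that sets the replication-dependent class apart, was searched in the annotated transcripts of GENCODE M21 (GRCm38). The search was for a 6-base stem beginning with GG and ending with CT, a loop of TTT and any base, and the matching second arm. It was found in 39 of the 59 replication-dependent genes and in 1 of the 8 replacement variants, H2afx, against 0.2237% of the 21901 coding genes of the annotation (49 genes). Where none was found, these letters are not in the annotated transcript and nothing follows about the gene's mRNA. One gene of each stem is shown, with the stem in capitals. The first form, with this loop, is the commonest and stands in 24 genes, here in H2bc11 at chr13:22043638-22043653 on the plus strand. The others are H4c4 (chr13:23581950-23581965, plus strand), H4c2 (chr13:23757366-23757381, plus strand) and H2afx (chr9:44335240-44335255, plus strand).
H2bc11: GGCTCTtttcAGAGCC
H4c4: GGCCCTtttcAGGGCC
H4c2: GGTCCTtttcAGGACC
H2afx: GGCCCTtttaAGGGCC
The stem followed the histone family. All 30 stem-loops of H1, H2A, H2B and H3 genes had the stem of H2bc11. Of the 9 stem-loops of H4 genes, 7 had the stem of H4c4 and 2 that of H4c2. The stem-loop of H2afx had the stem of most H4 genes.

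Replication-dependent genes were captured at low levels and were highest in IL-15C VM cells. Their 59 genes summed to 58.1, 44.9, 85.6 and 154 CPM, with counting intervals of 56.0 to 60.2, 42.9 to 46.9, 82.9 to 88.3 and 150 to 157. The 8 replacement variants summed to 736, 893, 1326 and 2279 CPM. Per length, replication-dependent transcripts made up 13.4%, 9.39%, 13.1% and 14.3% of all histone TPM. By reads the share was 7.31%, 4.79%, 6.07% and 6.31%, highest in untreated naive cells, so the order of libraries depends on the length scaling. Of the 59 genes, 49 had their highest level in IL-15C VM cells, 4 in IL-15C naive, 6 in untreated naive and none in untreated VM cells. The number reaching 1 CPM was 15, 9, 28 and 50 in the 4 libraries.

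In untreated mice, VM cells did not have more replication-dependent histone RNA in sum than naive cells. Of the 59 genes, 15 passed the filter on low values, and 0 were counted as higher and 0 as lower, against 4.81% higher and 1.11% lower of the 12259 genes compared. The median log2 ratio over all 59 was 0.04, beside 0.01 over all genes compared. The summed level was 0.773-fold that of naive cells (0.730 to 0.819). The intervals of 13 genes lay below equality, those of 3 above it, and those of 43 spanned it. Genes of the cell cycle stood apart from this: all 20 listed mitosis genes were higher in the same comparison, with a median log2 ratio of 3.25, as were 9 of 25 listed S phase genes, with a median of 0.84.

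After IL-15C many replication-dependent genes were higher in VM cells and fewer in naive cells. In naive cells 29 of the 59 passed the filter and 9 were higher than in untreated naive cells, with 0 lower. The count of 9 became 0 when 5 CPM was required, with 2 genes left to compare, 4 among genes sharing under 50% of their 100-base words and 4 among genes without exon overlap. The summed level was 1.47-fold that of untreated naive cells (1.41 to 1.55), and 8 of the 59 log2 ratios were below 0. The shares over all 12174 genes compared were 4.95% higher and 1.99% lower. The median log2 ratio was 1.15 over the 59 genes and 0.02 over all genes compared. In VM cells 50 passed and 41 were higher, with 0 lower, against 8.6% higher and 8.83% lower of 12370 genes. Here the median log2 ratio was 2.41, beside -0.04 over all genes compared. Most of these genes passed only through the library where they were high, since 9 reached 1 CPM in untreated VM cells and 50 in IL-15C VM cells. Few could therefore be called lower. The count of 41 became 4 when 5 CPM was required, with 6 genes left to compare. Without regard to the filter, the intervals of 52 of the 59 genes lay above equality and those of 2 below it. Between the subsets of IL-15C-treated mice, 51 passed and 11 were higher in VM cells, with 0 lower, against 6.52% higher and 5.91% lower of 12206 genes. That median was 1.18, beside -0.01 over all genes compared. Here 28 genes reached 1 CPM in IL-15C naive and 50 in IL-15C VM cells. Part of them thus passed only through the VM library and could hardly be called lower. The same limit bears on naive cells, where 15 reached 1 CPM in untreated and 28 in IL-15C cells.

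**Figure D1:**
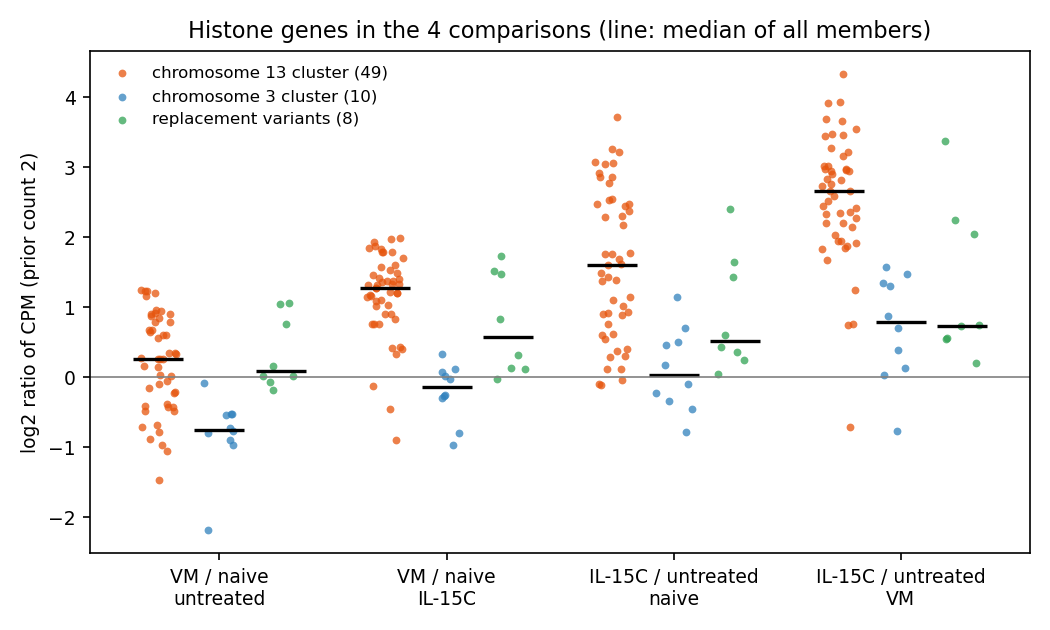
Each point is the log2 ratio of 1 histone gene in 1 of the 4 comparisons, coloured by chromosome 13 cluster, chromosome 3 cluster or replacement variant, and the bar is the median of all members of that set. Medians of the chromosome 13 genes were 0.26, 1.28, 1.6 and 2.66 from left to right, and those of the chromosome 3 genes -0.75, -0.14, 0.04 and 0.79.

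The clusters differed in how far they were higher after IL-15C. Of the 59 genes, 49 lie in the cluster on chromosome 13 (21715711 to 23764412) and 10 in that on chromosome 3 (96219885 to 96270192), both on GRCm38. The chromosome 13 genes summed to 29.5, 27.7, 62.8 and 137 CPM, and those of chromosome 3 to 28.6, 17.2, 22.8 and 16.7 CPM. Per length, the chromosome 13 cluster summed to 105, 97.8, 204 and 476 TPM and the chromosome 3 cluster to 59.9, 35.5, 49.2 and 39.8 TPM. The chromosome 13 share of replication-dependent TPM thus went from 63.8% in untreated naive cells through 73.4% and 80.6% to 92.3% in IL-15C VM cells. From untreated to IL-15C VM cells its sum was 4.94-fold higher (4.65 to 5.26), and that of the chromosome 3 cluster was 0.970-fold (0.874 to 1.07). In naive cells the corresponding ratios were 2.13-fold (2.00 to 2.27) and 0.799-fold (0.737 to 0.866). In IL-15C against untreated VM cells, 45 of the chromosome 13 genes passed the filter and 41 were higher. Of the chromosome 3 genes 5 passed and 0 were higher, and the other 5 were too low to be called. Without regard to the filter, 9 of the 10 chromosome 3 genes had a log2 ratio above 0 in VM cells, with a median of 0.79 and 4 intervals above equality. In all, 46 of the 49 chromosome 13 genes were highest in IL-15C VM cells. On chromosome 3, 5 of the 10 genes were highest in untreated naive cells, and all 10 log2 ratios of untreated VM to untreated naive cells were below 0, from -2.18 to -0.09. In that comparison the intervals of 7 of the 10 lay below equality.

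**Figure D2:**
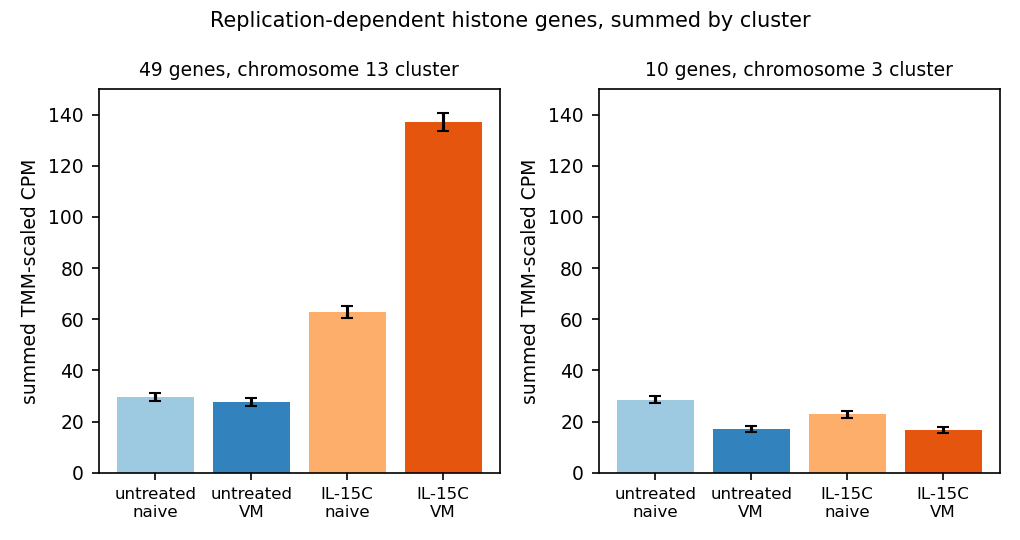
Bars give the summed TMM-scaled CPM of the replication-dependent genes of each cluster in each library, and the bars' whiskers are exact 95% Poisson intervals of the count. The chromosome 13 sum was 137 CPM in IL-15C VM cells and 27.7 CPM in untreated VM cells, and the chromosome 3 sums lay between 16.7 and 28.6 CPM.

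The chromosome 3 sum of reads was weighted by H2bc21, whose annotated gene is longer than most. H2bc21 (chr3:96221072-96223738), which codes for the H2B form H2BE studied in mouse olfactory neurons, stood at 15.5, 8.88, 9.04 and 5.20 CPM. By symbol alone H2bc21 counts here as replication-dependent, and no stem-loop was found in its annotated transcript of 2620 bases. It had the most reads of all replication-dependent genes in both untreated libraries and the lowest ratio in IL-15C against untreated VM cells, 0.586-fold (0.495 to 0.692). It held 54.3% of the chromosome 3 reads in untreated naive cells and 31.2% in IL-15C VM cells, but per length 19.4% and 8.41% of the TPM. Without it, the remaining 9 genes summed to 13.1, 8.30, 13.8 and 11.5 CPM. Their ratio of IL-15C to untreated was then 1.06-fold in naive cells (0.946 to 1.18) and 1.38-fold in VM cells (1.2 to 1.58), so the value below equality in naive cells and the flat value in VM cells both rest on H2bc21. Per length the leading gene of the cluster was H2ac18, at 13.8, 9.19, 10.9 and 9.10 TPM. H2ac18 (an H2A gene at chr3:96245497-96246052) stood at 3.87, 2.68, 3.61 and 2.94 CPM, with untreated VM at 0.692-fold untreated naive cells (0.546 to 0.872) and both IL-15C ratios spanning equality. Reads of H2ac18 and its neighbour H2ac19 are uncertain, since 88.3% and 100% of their 100-base words also occur in other transcripts.

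The chromosome 13 genes with the most captured RNA rose in IL-15C VM cells, apart from H1f2. H4c9 (chr13:22040960-22041362), an H4 gene, stood at 1.73, 2.08, 3.30 and 12.8 CPM. IL-15C VM cells thus had 6.15-fold the level of untreated VM cells (4.93 to 7.75) and 3.87-fold that of IL-15C naive cells (3.22 to 4.67), both counted as higher. H3c3 (chr13:23745042-23745521), an H3 gene, stood at 0.197, 0.491, 3.10 and 8.0 CPM, low in both untreated libraries and high in both IL-15C libraries. It was the gene with the highest log2 ratio of all 59 in naive cells, 3.71, with an interval from 8.33-fold to 33.6-fold. The H2A and H2B genes H2ac11 (chr13:22042478-22042949) and H2bc11 (chr13:22043198-22043658) stand head to head. H2ac11 stood at 0.0983, 0.223, 1.32 and 5.34 CPM, and H2bc11 at 0.413, 0.536, 2.20 and 8.75 CPM. Both genes kept the order of the libraries, and both had their log2 ratio of IL-15C to untreated VM cells near 4, at 4.34 and 3.92. For H2ac11 untreated naive cells had 5 reads, so its ratio there, 13.4-fold, has an interval from 5.45 to 42.9. Its reads are less certain than those of H2bc11, as 76.2% of its 100-base words occur in other transcripts and Gm44486 overlaps it on the opposite strand. H1f2 (chr13:23738807-23739531), the gene of the linker histone H1.2, went the other way at 7.57, 6.45, 7.35 and 3.92 CPM. IL-15C VM cells had 0.608-fold the level of untreated VM cells (0.5 to 0.738), which was not counted as lower. Together, H1f2 and H2bc21 made up 19.6% of replication-dependent TPM in untreated naive cells and 2.44% in IL-15C VM cells.

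The families within the chromosome 13 cluster differed in how far they rose. In IL-15C against untreated VM cells the 12 H2A genes rose 9.50-fold in sum (8.03 to 11.3), the 14 H2B genes 8.28-fold (7.16 to 9.62) and the 9 H3 genes 7.23-fold (6.02 to 8.73). The 10 H4 genes rose 4.34-fold (3.86 to 4.89). The 4 H1 genes were 1.23-fold (1.07 to 1.41), so the intervals of H2A, H2B and H3 overlapped, and those of H4 and H1 lay below them and apart. The H1 sum was weighted by H1f2, which held 289 of its 398 reads in untreated VM cells and was 0.608-fold. H1f3 was 4.84-fold (3.28 to 7.33), H1f4 1.71-fold (1.25 to 2.34) and H1f1, which did not pass the filter, 4.76-fold (2.28 to 11.2). In naive cells H2A was 5.96-fold (4.84 to 7.40), H3 3.63-fold (2.97 to 4.45), H2B 3.06-fold (2.61 to 3.61), H4 1.53-fold (1.35 to 1.72) and H1 1.25-fold (1.11 to 1.40). In IL-15C against untreated VM cells, 12 of 12 H2A, 13 of 14 H2B and 8 of 9 H3 genes were called higher. So were 7 of 10 H4 genes and 1 of 4 H1 genes, against 8.6% of all genes compared. The H1 gene was H1f3, at 0.963, 0.714, 2.60 and 3.45 CPM. All called H2A, H2B and H3 genes were under 1 CPM in untreated VM cells and passed only through the IL-15C VM library. The calls come from the same reads as the sums and are no separate support for them. Before IL-15C, the subsets differed in some families. The chromosome 13 H2A sum was 1.62-fold in untreated VM against untreated naive cells (1.26 to 2.1), on 153 and 107 reads of 12 genes, none of which passed the filter. Over all 16 H2A genes of both clusters it was 0.814-fold (0.719 to 0.921). On chromosome 13 H4 was 0.826-fold (0.718 to 0.95) and H1 0.786-fold (0.690 to 0.895). H2B at 1.12-fold (0.923 to 1.37) and H3 at 1.18-fold (0.919 to 1.51) spanned equality there.

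Genes grouped by their annotated 3′ end differed in the size of the rise, in a grouping chosen after the values were seen. Of the 39 replication-dependent genes with a stem-loop, 16 have an annotated transcript that runs 200 bases or more beyond it and 23 have fewer. On chromosome 13, the 20 genes with short ends summed to 7.18, 8.73, 25.5 and 66.8 CPM. The 13 genes with long ends there summed to 18.3, 14.6, 23.8 and 38.8 CPM, so they led in untreated cells and trailed in IL-15C VM cells. From untreated to IL-15C VM cells the short-ended genes rose 7.65-fold (6.88 to 8.53) and the long-ended ones 2.65-fold (2.42 to 2.90). In naive cells these ratios were 3.55-fold (3.15 to 4.00) and 1.30-fold (1.19 to 1.42). The 16 genes with no stem-loop found there had ratios near those of the short-ended ones, at 7.24-fold (6.23 to 8.46) in VM and 3.35-fold (2.86 to 3.94) in naive cells. In untreated VM against untreated naive cells the short-ended genes were 1.22-fold (1.05 to 1.41) and the long-ended ones 0.801-fold (0.724 to 0.886). Those with no stem-loop found were 1.07-fold (0.878 to 1.31). The 13 long-ended genes are 3 of H1 (H1f2, H1f3 and H1f4), 1 of H2A (H2ac6), 2 of H2B (H2bc6 and H2bc9), 3 of H3 (H3c4, H3c6 and H3c7) and 4 of H4 (H4c3, H4c4, H4c9 and H4c11). H1f2 alone held 289 of the 656 long-ended reads in untreated VM cells and 168 of the 1662 in IL-15C VM cells. Within families the difference did not hold throughout. The 3 long-ended H1 genes were 1.15-fold in VM cells (0.998 to 1.32), with no short-ended H1 gene to set beside them. In H2B, short-ended genes rose 11.3-fold in VM cells (9.14 to 14.1) and long-ended ones 5.45-fold (3.82 to 7.98). In H3 these values were 7.86-fold (6.15 to 10.2) and 4.69-fold (3.23 to 6.97), with overlapping intervals. In H2A they were 11.3-fold (8.92 to 14.6) and, for H2ac6 alone, 4.28-fold (2.18 to 9.17), again with overlapping intervals. In H4 the order was the reverse, 3.45-fold for short-ended (2.87 to 4.17) and 4.77-fold for long-ended genes (4.06 to 5.63). In naive cells the H4 values were 1.57-fold (1.30 to 1.9) and 1.43-fold (1.21 to 1.68). Whether the reads come from extended, polyadenylated transcripts or from stem-loop transcripts was not tested.

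H2A and H2B genes that stand head to head had ratios about as close as those of other H2A and H2B genes. The exception was IL-15C against untreated VM cells, where partners were closer. In 11 pairs the start sites lie back to back within 500 bases, at gaps of 163 to 267 bases. For the 10 pairs on chromosome 13, the median absolute difference between partners was 0.49 log2 units between untreated subsets, 0.30 between IL-15C subsets, 0.89 for IL-15C in naive and 0.30 for IL-15C in VM cells. Over the 90 other combinations of the same H2A and H2B genes it was 0.51, 0.37, 0.78 and 0.58. Partners were thus the closer ones by a clear margin in IL-15C VM cells and not in naive cells, a description with no test, chosen after the values were seen. Partners had opposite signs in IL-15C VM cells in the chromosome 3 pair of H2ac20 and H2bc21, with log2 ratios of 0.40 and -0.77. The widest gap in naive cells was between H2ac7, with a log2 ratio of 2.17, and H2bc7, with 0.12, on 6 reads of H2bc7 in each naive library.

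Promoter sequences, 250 bases before to 50 after the annotated start, were available from RefSeq (GRCm38.p6) for 61 of the 67 genes. Searched on both strands, CCAAT was present in 47 of 54 replication-dependent and 5 of 7 replacement promoters, against 37.4% of all 32851 promoters. TATAAA was present in 31 of 54 and 1 of 7, against 13.6%. The octamer ATTTGCAT, known from H2B promoters as the site of Oct-1, was present in 11 of 54 and 1 of 7, against 1.74%, and in 6 of the 14 H2B promoters. All 14 H2B and all 16 replication-dependent H2A promoters held CCAAT. A match is a string of letters and not a shown binding site. Below stand, on the plus strand and with these motifs in capitals, the promoter of H2bc11 (chr13:22042948-22043247), which covers the gap to H2ac11 and has 5 CCAAT, that of H2bc3 (chr13:23746484-23746783), which has 3 CCAAT, 1 TATAAA and 1 octamer, and that of the replacement variant H2afz (chr3:137864237-137864536), which has 3 CCAAT.
H2bc11: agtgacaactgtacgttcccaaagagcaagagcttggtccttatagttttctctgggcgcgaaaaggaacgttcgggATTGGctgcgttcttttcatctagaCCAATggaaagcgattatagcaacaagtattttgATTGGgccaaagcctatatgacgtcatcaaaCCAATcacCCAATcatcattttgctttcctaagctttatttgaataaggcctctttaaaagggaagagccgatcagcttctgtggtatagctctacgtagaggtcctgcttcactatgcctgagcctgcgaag
H2bc3: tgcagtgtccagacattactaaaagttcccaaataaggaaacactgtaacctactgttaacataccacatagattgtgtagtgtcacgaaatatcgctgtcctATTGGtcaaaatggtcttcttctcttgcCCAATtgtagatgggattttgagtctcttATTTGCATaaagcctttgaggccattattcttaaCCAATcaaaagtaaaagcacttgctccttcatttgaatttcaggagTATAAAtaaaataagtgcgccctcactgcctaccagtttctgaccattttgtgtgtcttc
H2afz: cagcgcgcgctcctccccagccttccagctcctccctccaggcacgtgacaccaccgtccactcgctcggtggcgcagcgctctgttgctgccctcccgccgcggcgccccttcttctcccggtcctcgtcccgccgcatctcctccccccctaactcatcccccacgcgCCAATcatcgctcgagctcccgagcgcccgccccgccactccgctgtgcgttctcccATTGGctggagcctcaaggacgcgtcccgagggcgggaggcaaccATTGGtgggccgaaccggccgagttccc
H2bc3, an H2B gene with the octamer, stood at 0.0983, 0.290, 1.12 and 4.15 CPM, with a log2 ratio of 3.65 in IL-15C against untreated VM cells. H2bc11, with no octamer in this window, had 3.92.

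Among the replacement variants, 3 of the 4 H2A genes rose with IL-15C and the H3.3 genes stayed within 2-fold. All 8 passed the filter in each comparison. In IL-15C against untreated cells 3 of 8 were higher in naive cells and 3 of 8 in VM cells, with 0 lower, against 4.95% and 8.6% of all genes higher, and in both cases these were H2afz, H2afx and H2afv. Between subsets 1 of 8 (H2afz) was higher in untreated VM cells and 3 of 8 (H2afz, H2afx and H1f0) in IL-15C VM cells, with 0 lower, against 4.81% and 6.52% of all genes higher. Exons of H1f0, H2afj, H2afx and H3f3a overlap genes on the opposite strand (for H2afx, Gm44335), and whether counting used strand is not given. The median log2 ratio of the 8 was 0.09 and 0.58 between subsets in untreated and IL-15C mice, and 0.52 and 0.74 for IL-15C in naive and VM cells.

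H2afz codes for H2A.Z, a variant placed at promoters and regulatory regions. It lies at chr3:137864487-137866922, apart from the histone cluster of that chromosome. Its level was 104, 218, 325 and 901 CPM. Intervals were clear of equality in all 4 comparisons, with 2.09-fold between untreated subsets (2.03 to 2.17), 3.13-fold for IL-15C in naive cells (3.03 to 3.23) and 4.14-fold in VM cells (4.05 to 4.23). The call between untreated subsets lies close to the limit and was lost with each of the other count scalings. H2afv (chr11:6427226-6444511) codes for the second H2A.Z protein. It stood at 33.9, 34.4, 91.2 and 163 CPM, level between untreated subsets, 2.69-fold higher with IL-15C in naive cells (2.55 to 2.85) and 4.74-fold in VM cells (4.49 to 5.01). H2afx (chr9:44334715-44336077) codes for H2A.X, whose phosphorylated form marks DNA breaks, and its transcripts are known to end both at a stem-loop and at a poly(A) tail. It stood at 18.7, 31.8, 99.3 and 329.7 CPM. Among the 8 variants it had the largest ratios of IL-15C to untreated, 5.32-fold in naive cells (4.96 to 5.71) and 10.4-fold in VM cells (9.82 to 11). H2afj (chr6:136808248-136810074), whose product H2A.J accumulates in senescent human cells, stayed between 46.0 and 53.9 CPM, at 51.9, 46.0, 53.9 and 53.2.

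H3f3a and H3f3b, on chromosomes 1 and 11, both code for H3.3, the H3 form used outside replication. H3f3a stood at 266, 268, 360 and 393 CPM and H3f3b at 253, 283, 385 and 419 CPM. With IL-15C these were 1.35-fold (1.32 to 1.39) and 1.53-fold (1.49 to 1.56) in naive cells and 1.47-fold (1.43 to 1.5) and 1.48-fold (1.45 to 1.52) in VM cells, inside the 2-fold limit. H3f3c stood at 5.88, 5.62, 7.59 and 9.48 CPM, and 56.7% of its 100-base words occur in other transcripts. H1f0, the gene of the linker histone H1.0 found in quiescent and differentiated cells, was higher in VM cells of both conditions. It stood at 3.01, 6.25, 3.59 and 10.4 CPM, higher in each VM library than in either naive one. Its ratio of VM to naive cells was 2.08-fold in untreated mice (1.70 to 2.55) and 2.90-fold after IL-15C (2.42 to 3.49), of which the second was counted as higher.

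**Figure D3:**
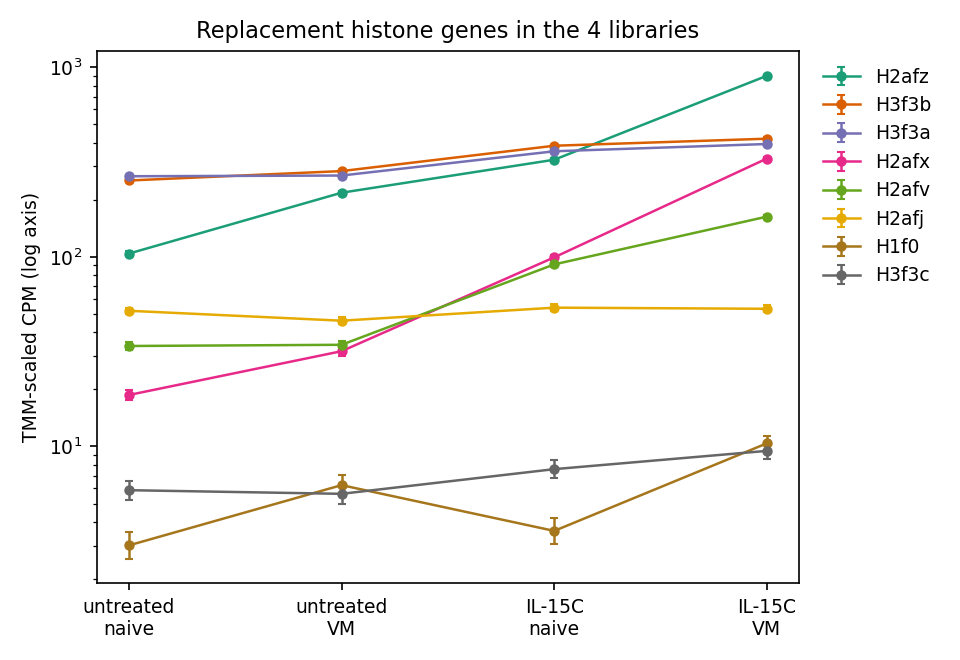
Points give the TMM-scaled CPM of the 8 replacement variants in each library on a log axis, with exact 95% Poisson intervals of the count, and lines join the values of 1 gene. H2afz went from 104 to 901 CPM and H2afx from 18.7 to 329.7 CPM between untreated naive and IL-15C VM cells, while H2afj stayed between 46.0 and 53.9 CPM.

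Within families, the make-up of captured transcripts per length shifted between libraries. Of the summed H2A TPM, H2afz made up 53.4%, 70.0%, 60.2% and 65.3%. H2afx went from 7.51% and 8.0% in untreated cells to 14.4% and 18.7% after IL-15C. H2afj made up 15.6%, 8.64%, 5.83% and 2.25%, a falling share of a rising total. The 16 replication-dependent H2A genes together made up 12.1%, 6.21%, 8.51% and 6.03%, highest in untreated naive cells. The H3 family differed: its replication-dependent share was 1.61% and 1.65% in untreated cells, 3.79% in IL-15C naive and 7.22% in IL-15C VM cells. H3.3 from H3f3a and H3f3b therefore dominated captured H3 in all 4 libraries, with H3f3a alone at 64.2%, 61.6%, 60.0% and 57.8%. In the H1 family H1f2 made up 63.0%, 60.6%, 49.6% and 28.4%, and H1f0 7.91%, 18.5%, 7.65% and 23.9%, so the share of H1f0 was larger in both VM libraries than in the naive ones and below that of H1f2 in all 4. These are shares of poly(A)-captured RNA and not of histone protein. By reads in place of TPM the replication-dependent shares were lower in all 3 families and kept this order of libraries for H2A and H1.

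**Figure D4:**
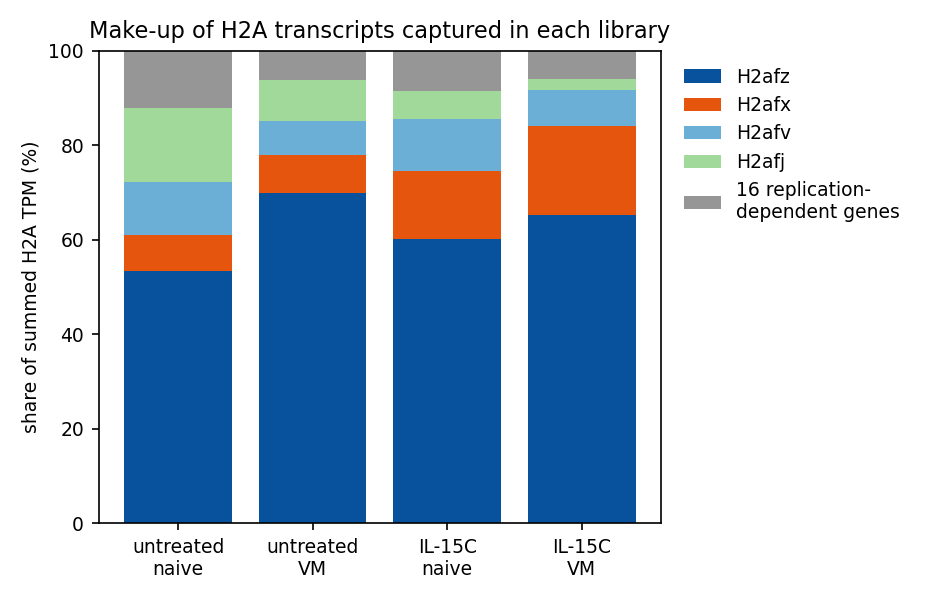
Stacked bars split the summed TPM of the H2A family in each library into the 4 replacement variants and the 16 replication-dependent genes. H2afz is the largest part throughout, H2afx grows to 18.7% and H2afj shrinks to 2.25% in IL-15C VM cells.

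Both IL-15C responses were set against each other gene by gene. A gene was counted when its log2 ratio of IL-15C to untreated differed more than 4-fold between the subsets. Of the 59 replication-dependent genes, 51 passed the filter, 2 rose more in VM cells and 0 in naive cells. Over all 12617 genes compared, 0.277% rose more in VM and 1.87% more in naive cells. The median difference of the log2 ratios was 0.82 over the 59 genes and -0.07 over all genes compared. The 2 genes were H2bc6 and H4c6. H2bc6, an H2B gene, stood at 1.06, 0.491, 0.990 and 2.80 CPM, so its log2 ratio of IL-15C to untreated was -0.10 in naive and 2.41 in VM cells. Its annotated exons overlap those of Gm11398 and H1f4 on the same strand, so some of its reads may belong to them. H4c6, an H4 gene, stood at 0.138, 0.0670, 0.506 and 1.38 CPM. Its untreated VM value rests on 3 reads and its interval there runs from 6.70-fold to 103-fold. None of the 8 replacement variants was counted.

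**Figure D5:**
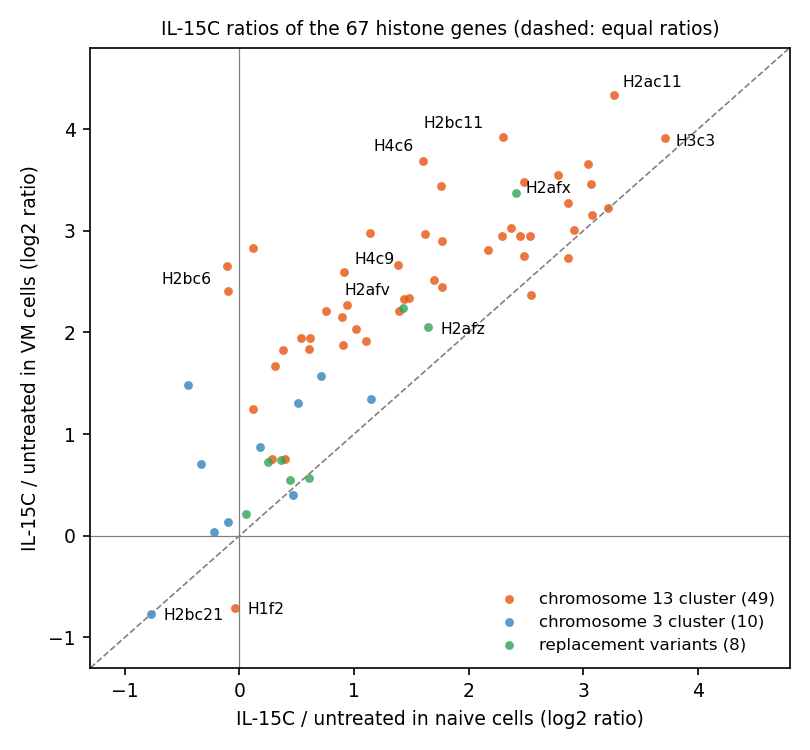
Each point is 1 of the 67 histone genes, with its log2 ratio of IL-15C to untreated in naive cells on the horizontal axis and in VM cells on the vertical axis, and the dashed line marks equal ratios. H2bc6 lies far above the line at -0.10 and 2.41, H3c3 close to it at 3.71 and 3.91, and H1f2 and H2bc21 lie below 0 in both.

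The genes that make, process and place histones were read beside them. In the list for histone mRNA transcription and 3′ processing, 3 of the 20 entries are older symbols of others in it (Ars2 of Srrt, Mizf of Hinfp and Zcchc6 of Tut7), which leaves 17 genes, all in the table. Of these 17, 0 and 1 were higher in VM than in naive cells of untreated and IL-15C mice, against 4.81% and 6.52% of all genes. With IL-15C, 3 were higher in naive and 3 in VM cells, against 4.95% and 8.6%, and none was lower in any of the 4 comparisons. Slbp, the stem-loop binding protein, stood at 53.6, 68.5, 183 and 219 CPM, higher with IL-15C by 1.77 and 1.68 on the log2 scale in naive and VM cells. Npat, the activator of replication-dependent histone genes, stayed within 2-fold at 42.6, 39.9, 34.9 and 45.5 CPM. Zfp473, which takes part in histone pre-mRNA processing, stood at 1.26, 2.17, 4.14 and 13.3 CPM and was the 1 gene higher between the IL-15C subsets, a share of the list no larger than that over all genes. Of 32 chaperone and deposition genes, 4, 5, 11 and 15 were higher and 0, 0, 1 and 1 lower between untreated subsets, between IL-15C subsets, and with IL-15C in naive and in VM cells. The shares of all genes higher were 4.81%, 6.52%, 4.95% and 8.6%, and those lower 1.11%, 5.91%, 1.99% and 8.83%. Chaf1a, of the CAF-1 complex that loads H3 and H4 at forks, stood at 2.91, 12.2, 55.1 and 119 CPM, and the H3-H4 chaperone Asf1b at 6.19, 16.1, 102 and 242 CPM. The lower genes were Ep400, an H2A.Z exchange ATPase, in naive cells, with a log2 ratio of -1.23, and Ubn2, of the H3.3-loading HIRA complex, in VM cells, with -1.56. Hira itself, which loads H3.3, stood at 63.4, 63.2, 65.3 and 83.1 CPM.

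Cell cycle genes gave the scale of the change. Of 25 S phase genes, 24 were higher with IL-15C in naive and 25 in VM cells, with medians of 2.38 and 2.59, and 8 were higher in IL-15C VM than in IL-15C naive cells. Their summed level rose 4.66-fold in naive cells, where the chromosome 13 histone sum was 2.13-fold, and 5.73-fold in VM cells, where that sum was 4.94-fold. All 20 mitosis genes were higher with IL-15C in each subset, with median log2 ratios of 5.64 in naive and 4.14 in VM cells, and 18 were higher in IL-15C VM than in IL-15C naive cells. Over all genes compared, the shares higher were 4.95% with IL-15C in naive cells, 8.6% in VM cells and 6.52% between IL-15C subsets. The level of Mki67 was 8.22, 117, 432 and 1566 CPM. Histone variants outside the symbol rule moved apart from each other. Cenpa, the centromeric H3, stood at 11.5, 15.4, 42.2 and 208 CPM, higher with IL-15C in both subsets and higher in IL-15C VM than in IL-15C naive cells. Macroh2a1, of the macroH2A type, stayed within 2-fold at 416, 425, 355 and 444 CPM.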

How the data were processed

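Poly(A) RNA of 4 sorted CD8 T cell libraries was sequenced with a stranded TruSeq kit as pairs of 100 bases, per the labels' protocols. The submitters' processing notes name HISAT2 2.1.0, StringTie 2.1.3b and the mm10 build without their roles; the annotation and any use of strand in counting are not given in the sources used here. The authors deposited whole-number read counts per gene, TPM, FPKM (not used) and log2 values of TMM-scaled CPM, per the file headers. Recomputed from the counts, the last differ by at most 5e-09. Another 10 columns holding values by sample were left aside.

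Counts were scaled with TMM (edgeR 4.0.16, R 4.3.3; factors 1.04, 1.02, 0.996 and 0.946). Log2 ratios used a prior count of 2, and the median ratio of a gene set is over all its members. The rule for calls was applied to all genes. It recovered known differences in simulated counts, but no recovery is given for genes as low as most replication-dependent ones. Of these 59 genes, 44 were under 1 CPM in untreated naive and 50 in untreated VM cells. With 1 library per group, variation between mice could not be measured, so the simulation does not test the calls against it. Python 3.11.15 with scipy 1.17.1 gave the intervals. Without molecular identifiers, reads are not separate molecules. Replicate-based tests could not be made.

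Named are all replacement variants, the 5 replication-dependent genes with the highest mean TPM, in each comparison the 3 highest and 3 lowest ratios among genes with 5 CPM, and Cenpa, Slbp and Npat; of the other listed genes only examples of the 3 highest and 1 lowest ratios are given, and further genes were chosen after their values were seen. Members and lists were chosen with earlier results of these data known. In the table, 3 pseudogenes with these prefixes were left out. Of the replication-dependent genes, 25 share 50% or more of their 100-base words with another gene and 22 overlap exons of another gene, so their reads may be split or mixed; 4 replacement variants overlap another gene. Passing the filter in any of the 4 comparisons were 51 of the 59, and in all of them 15. Alternatives were other scalings, filters, prior counts, TPM, and other memberships.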

Additional observations from a re-analysis of the deposited data

Results flagged for a closer look

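With 1 library per group no sample could be compared with others of its group. In 3 cases the subset difference had opposite directions in untreated and IL-15C mice, with both counting intervals clear of equality; the difference was not tested. The summed replication-dependent genes had log2 ratios of VM to naive cells of -0.37 in untreated and 0.84 in IL-15C mice, a difference of 1.21. Neither cluster met this rule by itself. The chromosome 13 sum had -0.09 (-0.20 to 0.02) and 1.12, and the chromosome 3 sum -0.73 and -0.45. H2bc6 had -1.05 and 1.46, a difference of 2.51. H4c4, an H4 gene at 1.75, 1.07, 2.29 and 3.92 CPM in untreated naive, untreated VM, IL-15C naive and IL-15C VM cells, had -0.69 and 0.77, a difference of 1.45.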

How the results depend on the processing

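No paired analysis was possible because each group has 1 library, and for the same reason no replicate could be left out. Of 312 recomputed values of the comparisons, shares and cluster sums, 258 stayed within 1.5 times the count, or within counting error of the ratio or share. Part of these had little or no room to move, so the tally does not measure robustness. No gene of either histone class was called lower in the main setting, so unchanged counts of lower genes carry little weight. Medians over all members cannot change when the filter is dropped or the point value is used for calls. Depth limits the replication-dependent genes: 44 of the 59 were under 1 CPM in untreated naive and 50 in untreated VM cells, and counts of calls moved with the filter. The sums without single genes and the split by 3′ end within families were chosen after seeing the data. The causes were not tested beyond what fewer genes or reads explain by construction.

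The number of replication-dependent genes higher with IL-15C in naive cells (9) was 19 without a filter, 0 at 5 CPM (2 genes compared, median log2 ratio -0.41), 21 by TPM, 4 among genes sharing under 50% of their words and 4 among genes without exon overlap. In VM cells (41) it was 4 at 5 CPM (6 genes compared), 22 of 34 and 27 of 37 for those last settings. Between IL-15C subsets (11) it was 4 at 5 CPM, 33 by the point value, 26 by TPM, and 7 and 7 for the last settings. The number with a larger response in VM cells (2) was 4 without a filter, 0 at 5 CPM and 0 by TPM. By the point value 1 gene was lower in untreated VM cells. Of the replacement variants, the number higher in untreated VM cells (1) was 0 with median-of-ratios size factors, 0 with total counts and 2 by the point value; 1 of 4 without exon overlap was higher in IL-15C VM than in IL-15C naive cells. Their median log2 ratio between IL-15C subsets (0.58) was 0.63 with median-of-ratios factors, 0.50 with total counts, 0.32 without H2afx and 0.84 without H3f3c. With IL-15C in naive cells (0.52) it was 0.61 at 5 CPM, 0.30 by TPM, 0.44 without H2afx, 0.61 without H3f3c and 1.02 without exon overlap. In VM cells (0.74) it was 0.63 with total counts, 0.53 by TPM and 1.40 without exon overlap.

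By reads in place of TPM, the replication-dependent share in untreated naive, untreated VM, IL-15C naive and IL-15C VM cells was 79.0%, 58.7%, 79.7% and 51.3% of H1, 5.51%, 2.91%, 3.78% and 2.67% of H2A, and 0.685%, 0.669%, 1.46% and 2.82% of H3. With total counts the log2 ratio of the chromosome 13 sum was 1.05 between IL-15C subsets and 2.19 for IL-15C in VM cells, beside 1.12 and 2.31. Without H4c9 and H1f2 it was 1.21 and 2.65, and 1.37 for IL-15C in naive cells, beside 1.09. Without H2bc21 the chromosome 3 sum was -0.27 between IL-15C subsets, beside -0.45, and 0.46 for IL-15C in VM cells, beside -0.04; in naive cells it turned from -0.32 to 0.079.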

Other observations

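Some replication-dependent histone genes on other chromosomes carry symbols outside the rule and were looked at after the values were known. H2aw stood at 6.90, 4.13, 1.65 and 1.91 CPM in untreated naive, untreated VM, IL-15C naive and IL-15C VM cells, and was counted as lower with IL-15C in naive cells, with a log2 ratio of -2.04. H2bu2 stood at 1.73, 1.23, 0.814 and 0.583 CPM, with log2 ratios of IL-15C to untreated of -1.05 in naive and -1.02 in VM cells, neither counted. H4f16 stood at 0.629, 0.402, 0.264 and 0.373 CPM. These 3 genes were thus highest in untreated naive cells, as were 5 of the 10 genes of the chromosome 3 cluster.

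Among the other marker lists, summed CPM in the same order of libraries was 5.19, 12.7, 3.39 and 18.1 for macrophages and granulocytes (4 of 8 genes in the table), 215, 368, 314 and 457 for NK and gamma-delta T cells (6 of 8), 35.1, 59.5, 44.4 and 36.8 for CD4 T cells (4 of 6) and 2.73, 8.21, 2.22 and 2.17 for erythroid cells and platelets (5 of 8). The 10 CD8 identity and gate genes summed to 7117, 7773, 8319 and 7972 CPM.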
